A study of Mus musculus with 8 samples.

Results

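The Schlafen genes Slfn1, Slfn2, Slfn3, Slfn4, Slfn5, Slfn8 and Slfn9 were measured in the RNA of naive CD8 T cells, the resting precursors of cytotoxic T cells. They were chosen by symbol and not by their values, though with earlier results of these data known. They make up 7 of the 22609 genes in the deposited table. All 7 had a mean normalized read count of at least 10 over the 8 libraries and were among the 12048 genes tested, Slfn4 with a mean of 10.2 just inside that limit. The cells came from spleens of 3 month old C57BL/6 mice, with 4 libraries labelled wild type (WT 45, 54, 57 and 65) and 4 labelled Het (Het 31, 53, 56 and 139), named here by the numbers in their titles. Het stands for heterozygous at Brca1, a gene of DNA double strand break repair. How the allele was made, and the sex, litter and isolation day of the mice, are not given in the labels. The labels do not say whether the libraries stem from different mice, and every p-value therefore refers to the spread among these libraries, which may be technical.

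The Schlafen family takes its name from the German word for sleeping, because Slfn1 slowed the growth of thymocytes when it was first described. The mouse genes lie in a cluster on 1 chromosome and code for short proteins (Slfn1 and Slfn2), proteins of middle length (Slfn3 and Slfn4) and long proteins with a helicase-like part (Slfn5, Slfn8, Slfn9). Slfn2 keeps resting T cells quiescent: mice with a defective Slfn2 have T cells that fail to rest and die on activation, and its protein binds transfer RNAs and shields them from cleavage. Several members are induced by type I interferon, the cytokine of the antiviral response, in cells of the immune system.

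The libraries carried the markers of the labelled cell. Of 14 naive CD8 T cell markers 13 were found and all 13 were tested, and Cd8b1, which codes for part of the CD8 receptor, ranged from 41051.8 to 55751.7 normalized reads. Genes above 0 numbered 15358 to 15569 in WT against 13863 to 14656 in Het libraries. Markers of other cells were present at lower summed levels. For 16 of 16 myeloid markers the summed normalized count was 10017.7 to 13206.3 in WT against 9860.2 to 18824 in Het libraries. For 15 of 15 B cell markers it was 11817 to 30463.9 in WT against 12268.2 to 74677.3 in Het libraries, highest in Het 31. For 10 of 10 NK cell markers it was 9889.4 to 13857.6 and 10934.6 to 20707.1, with Klra4 at 0 in every library. Nerve and connective tissue genes, a list chosen with their decrease known, were lower in Het in 15 of 15 and called in 9, with a summed normalized count of 5532.1 to 10025.4 in WT against 341.7 to 1247.4 in Het. Red cell and platelet markers summed to 435.8 to 924.6 in WT against 487.9 to 1163.2 in Het libraries, with Hbb-b1 and Hba-a1 at 0 throughout, neutrophil markers to 215.2 to 542.6 against 225.5 to 543.3, and CD4 T cell markers to 1892.3 to 3175.2 against 2074.6 to 3154.6. Most of these markers had higher values in Het: 8 of 9 tested NK cell markers (median log2 difference 0.85), 14 of 15 B cell markers (0.53), 14 of 15 myeloid markers (0.42), 8 of 9 red cell and platelet markers (0.48), 5 of 6 CD4 T cell markers (0.22) and 6 of 8 neutrophil markers (0.10). None of these was called by limma. An unadjusted limma p under 0.05 was found for 3 red cell and platelet, 2 myeloid, 1 NK cell and 1 CD4 T cell marker. No B cell or neutrophil marker had one. The genotypes did not overlap in 2 red cell and platelet markers and in no marker of the other 5 lists. Of all 12048 tested genes, 987 had an unadjusted limma p under 0.05 and 602 did not overlap, so such counts also arise outside these lists. The part of these cells and tissues in the Schlafen values was not tested, and in bulk RNA fewer cells of a type and less RNA per cell cannot be told apart.

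Slfn1 and Slfn2, the short members, were the most abundant members and did not pass the test between the genotypes. Slfn2 measured 10895, 12298.4, 11160.7 and 10657.6 in WT 45, 54, 57 and 65, against 13699.2, 11190.8, 10895 and 14243.9 in Het 31, 53, 56 and 139. Het 31 and Het 139 were above every WT library, while Het 53 and Het 56 lay within the WT range. Means were 11253 ± 727 for WT and 12507 ± 1710 for Het (n = 4 each, SD), a log2 difference of 0.14 on the log2(value + 1) scale (95% interval -0.10 to 0.39, SE 0.11, limma adjusted p = 0.734, exact permutation p = 0.229). Slfn1, the member whose gain slowed thymocyte growth, was at 10119.6, 11374.4, 11961.2 and 8644.2 in the same order of WT libraries and at 9995.9, 9313.6, 11259.1 and 15247 in the Het libraries. Only Het 139 lay above the WT range, and the other 3 Het libraries lay inside it. The Slfn1 means were 10525 ± 1470 and 11454 ± 2654 (n = 4 each, SD), with a log2 difference of 0.11 (95% interval -0.24 to 0.46, SE 0.16, limma adjusted p = 0.852, exact permutation p = 0.629). For both genes the interval leaves out a change of 2-fold in either direction. Without Het 139 the Slfn1 difference was -0.040.

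**Figure D1:**
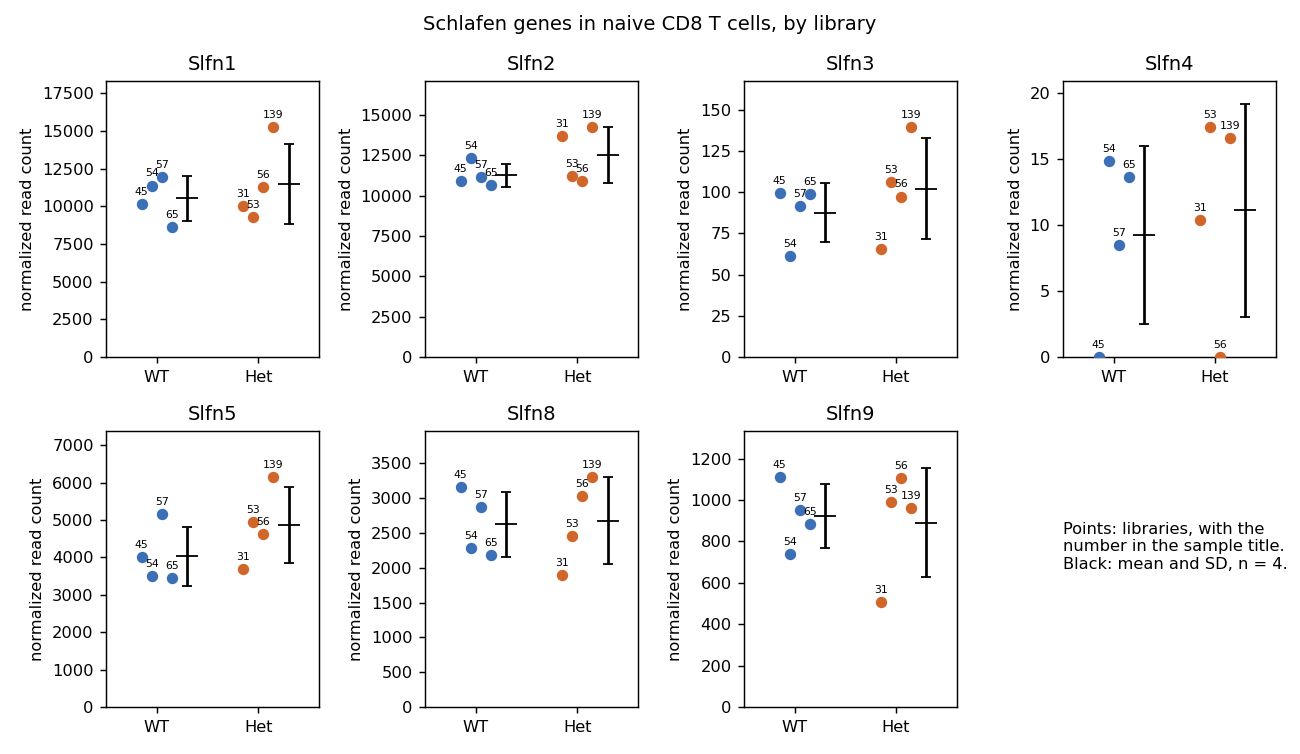
Normalized read count of each of the 7 Schlafen genes (vertical axes, each from 0) in the 4 WT and 4 Het libraries. Points are libraries with their number, and the black marks are the mean and SD (n = 4). The genotypes overlap in every panel, and Het 139 is the highest library for Slfn1, Slfn2, Slfn3, Slfn5 and Slfn8.

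Slfn3 and Slfn4, the members of middle length, were low. Slfn3, studied in the differentiation of gut epithelium, measured 99.5, 61.1, 91.4 and 98.7 in WT 45, 54, 57 and 65, against 65.6, 106.4, 97.4 and 139.5 in Het 31, 53, 56 and 139. WT 54 and Het 31 were the lowest of their genotypes and Het 139 the highest library. Its means were 87.7 ± 18.1 in WT and 102 ± 30.4 in Het (n = 4 each, SD; log2 difference 0.20, SE 0.28, limma adjusted p = 0.849, exact permutation p = 0.429). The difference was 0.031 without Het 139, 0.033 without WT 54 and 0.39 without Het 31.

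Slfn4, a gene known from macrophages and other myeloid cells, was listed at 0 in WT 45 and Het 56. It measured 14.8, 8.5 and 13.6 in WT 54, 57 and 65, against 10.4, 17.4 and 16.6 in Het 31, 53 and 139. Libraries with and without the transcript thus occurred in both genotypes. Counting the steps between low values puts those 6 libraries at an estimated 14 to 31 reads, and 3 reads correspond to a value of 0.8 in WT 45 and 4.4 in Het 56, which is the limit that a count of 0 allows there (counting error alone). WT 45 and Het 56 also had the lowest mean log2 level of the myeloid marker list, 6.82 and 6.66, against 7.37 to 8.55 in the other 6 libraries. By summed normalized count of that list, WT 65, with Slfn4 at 13.6, stood at 10017.7, below WT 45 at 10695.9 and above Het 56 at 9860.2. Whether myeloid cells carried the Slfn4 reads was not tested. The log2 difference of Slfn4 was 0.19 with a 95% interval from -2.39 to 2.77 (SE 1.17, limma adjusted p = 0.969, exact permutation p = 0.714), an interval that includes a difference of several fold in either direction. Its within-genotype SD of 1.94 on the log2 scale was larger than that of 96.1% of the 896 genes within 2-fold of its mean level, whose median was 0.87. The difference was -0.74 without WT 45 and 1.18 without Het 56.

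Slfn5, Slfn8 and Slfn9, the long members, were at middle to high levels. Slfn5, an interferon-inducible member, measured 4015.6, 3504, 5152.3 and 3456.5 in WT 45, 54, 57 and 65, against 3699.4, 4937.3, 4628.9 and 6157.4 in Het 31, 53, 56 and 139. WT 57 was higher than 3 of the 4 Het libraries, and Het 31 was lower than WT 45. Means were 4032 ± 789 for WT and 4856 ± 1015 for Het (n = 4 each, SD), a log2 difference of 0.26 (95% interval -0.10 to 0.63, SE 0.17, limma adjusted p = 0.690, exact permutation p = 0.257). Without Het 139 the Slfn5 difference was 0.14, and it was 0.39 without WT 57 and likewise without Het 31. Slfn5 had the smallest unadjusted limma p of the 7 genes, 0.142, and 20.6% of all tested genes had a smaller one. An annotated antisense transcript, Slfn5os, lies over part of the gene, and as the strand setting of the counting is not given, its reads cannot be told apart from those of Slfn5.

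Slfn8 measured 3160.6, 2280.1, 2872.7 and 2178.4 in WT 45, 54, 57 and 65, against 1896.2, 2462.5, 3037.4 and 3309.2 in Het 31, 53, 56 and 139. Het libraries were both the lowest and the highest. The means were 2623 ± 471 and 2676 ± 629 (n = 4 each, SD), with a log2 difference of 0.014 (95% interval -0.38 to 0.41, SE 0.18, limma adjusted p = 0.983, exact permutation p = 0.971), and its sign turned in 4 of the 8 fits that left out a library, from -0.098 without Het 139 to 0.17 without Het 31. Slfn9, the closest relative of Slfn8 among the members, was at 1112.6, 741.3, 953.6 and 881.9 in the WT libraries and at 504.9, 990.4, 1107.6 and 961.2 in Het 31, 53, 56 and 139. Het 31 was below every other library and the other 3 Het libraries were inside the WT range. Its means were 922 ± 154 and 891 ± 265 (n = 4 each, SD; log2 difference -0.10, 95% interval -0.60 to 0.41, SE 0.23, limma adjusted p = 0.914, exact permutation p = 0.857), and the difference was 0.16 without Het 31.

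None of the 7 members passed the limma threshold (adjusted p under 0.05), against 62 of 12048 tested genes (0.515%). None had an unadjusted limma p under 0.05, against 8.19% of tested genes, and the exact permutation test gave no p below 0.229. The genotypes overlapped in 7 of 7 members, where 5.0% of tested genes had no overlap. The fitted difference was above 0 in 6 of the 7, with a median of 0.14, beside 6261 of 12048 genes and a median of 0.010 over all tested genes. Without WT 45, 54, 57 or 65, the number of genes called over the whole table was 57, 16, 11 and 16. Without Het 31, 53, 56 or 139 it was 27, 21, 91 and 30. No member was called in any of these fits.

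**Figure D2:**
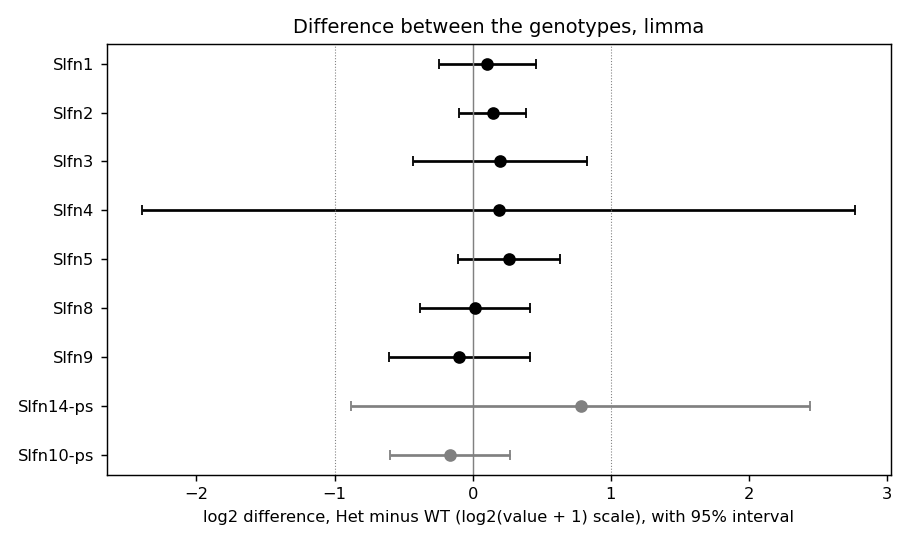
Log2 difference between Het and WT (horizontal axis, log2(value + 1) scale) with its 95% interval from limma, for the 7 members (black) and the other Schlafen genes that were tested (grey); dotted lines mark a change of 2-fold. Every interval includes 0, and that of Slfn4 runs from -2.39 to 2.77.

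Per kilobase of exon, the members spanned more than 3 orders of magnitude. Exon lengths were taken from GENCODE M21, an annotation of a later build than mm9, the build named for the counts, and range from 1664 bases for Slfn2 to 6326 for Slfn5. On this scale the mean level over the 8 libraries was 7139 for Slfn2, 5896 for Slfn1, 702 for Slfn5, 648 for Slfn8, 152 for Slfn9, 27.8 for Slfn3 and 2.56 for Slfn4. Slfn2 was above Slfn1 in 8 of 8 libraries, although the ranges of both genes over the libraries overlapped. Slfn5 was above Slfn8 in 5 of 8 libraries, so this neighbouring pair did not differ beyond its spread. The ranges of the other neighbours in the order did not overlap. By mean level Slfn1 was 8.39 times Slfn5, Slfn8 was 4.26 times Slfn9, Slfn9 was 5.46 times Slfn3, and Slfn3 was 10.9 times Slfn4. Low values need not be proportional to reads, so the ratios that reach down to Slfn3 and Slfn4 are the least certain. In WT 54, for example, Slfn3 at 61.1 stood for an estimated 86 reads and Slfn4 at 14.8 for 31. As a share of the summed normalized count of the 7 members, Slfn1 and Slfn2 took 32.1% to 38.0% and 34.7% to 45.9% of it in single libraries, and Slfn5 11.6% to 17.01%. The sum was 29452 ± 2622 in WT and 32498 ± 5118 in Het (n = 4 each, SD), with 40074.8 in Het 139 and at most 32200.4 in each of the other libraries.

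**Figure D3:**
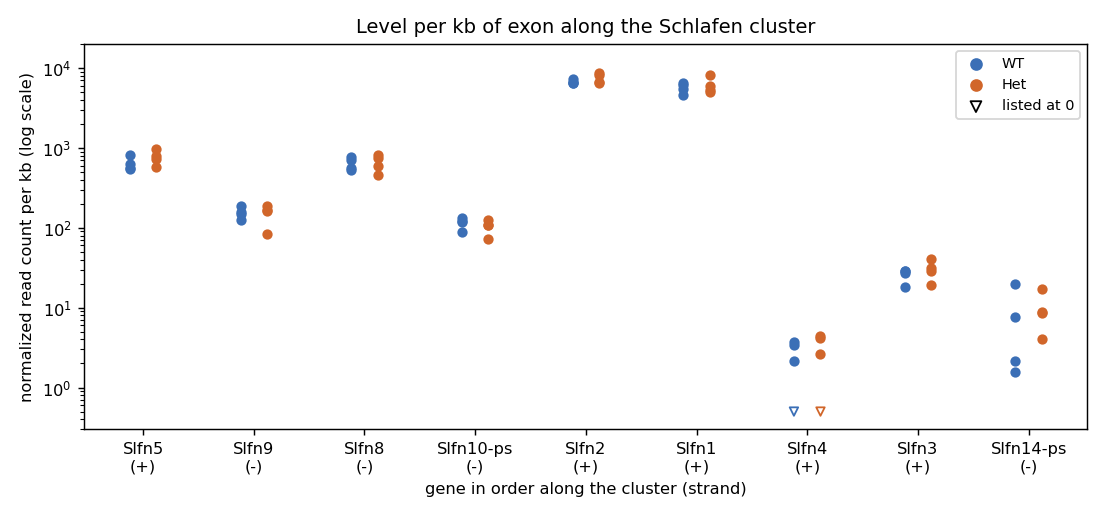
Normalized read count per kilobase of exon (log axis) of the Schlafen genes in their order along the cluster, with the strand of each gene; points are the WT and Het libraries, and open triangles mark libraries in which Slfn4 is listed at 0, drawn at the bottom of the axis. Slfn2 and Slfn1 are neighbours in the cluster and stand highest, with mean levels of 7139 and 5896.

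The other Schlafen genes in the table did not pass either. Slfn10-ps, annotated as a transcribed pseudogene between Slfn8 and Slfn2, was at 418 ± 70.3 in WT and 376 ± 81.5 in Het (n = 4 each, SD; log2 difference -0.16, limma adjusted p = 0.818). Slfn14-ps, the older symbol of Slfn14, a gene of platelet and red cell formation, measured 28.3, 73.9, 5.8 and 7.9 in WT 45, 54, 57 and 65, against 63.6, 32.9, 15 and 32.1 in Het 31, 53, 56 and 139 (log2 difference 0.78, SE 0.75, limma adjusted p = 0.775), and its relation to the red cell and platelet markers was not tested. Slfnl1, a Schlafen-like gene on another chromosome, was below the filter, at 19.2 in Het 56 and at most 2.1 in each of the other libraries.

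Slfn8, Slfn9 and Slfn10-ps share sequence, which bears on how far their values are separate. Of all windows of 50 bases in the annotated transcripts of Slfn10-ps, 19.7% also occur in another Schlafen gene, and the share was 14.6% for Slfn8, 11.2% for Slfn9, 8.15% for Slfn4, 7.39% for Slfn3, 4.27% for Slfn2, 0.606% for Slfn1 and 0 of 6324 windows for Slfn5. With windows of 100 bases it was 7.84% for Slfn10-ps, 3.38% for Slfn8, 3.71% for Slfn9 and at most 0.128% for each other member. Neither the read length nor the counting of reads with several possible origins is known here, so the values of Slfn8 and Slfn9 are less certain than that of Slfn5.

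The ratio of 2 members within a library is free of any single scaling factor of that library, though not of a normalization that moves high and low genes unequally. Of the 21 pairs of members, none passed the test of its log2 ratio between the genotypes: the smallest exact permutation p was 0.143, for Slfn5 over Slfn8, and all 21 adjusted p were 1. That ratio was 0.62 ± 0.21 in WT and 0.87 ± 0.18 in Het (n = 4 each, SD), with WT 57 at 0.84 and Het 56 at 0.61. Slfn1 over Slfn2 was -0.11 ± 0.16 in WT and -0.14 ± 0.26 in Het (n = 4 each, SD; exact permutation p = 0.857), from -0.45 in Het 31 to 0.10 in WT 57 and Het 139.

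The members differed in how steady they were from library to library, with Slfn4 the least steady (SD 1.94, above). Slfn2 had a within-genotype SD of 0.15 on the log2 scale, beside a median of 0.16 for the 918 genes within 2-fold of its mean level. Slfn5, Slfn8 and Slfn9 had SDs of 0.29, 0.31 and 0.40, larger than 87.6%, 92.2% and 94.5% of the genes within 2-fold of their own means, and Slfn1, with 0.27, was above 84.3%. Slfn3, with 0.39, was above 38.7% of genes at its lower level. Het 139 was above the mean of the 8 libraries in all 7 members, and Het 31 was below it in 5 of them, the exceptions being Slfn2 and Slfn4. In Het 31 the deviation was -0.81 for Slfn9, -0.57 for Slfn10-ps, -0.46 for Slfn8 and 0.21 for Slfn2.

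**Figure D4:**
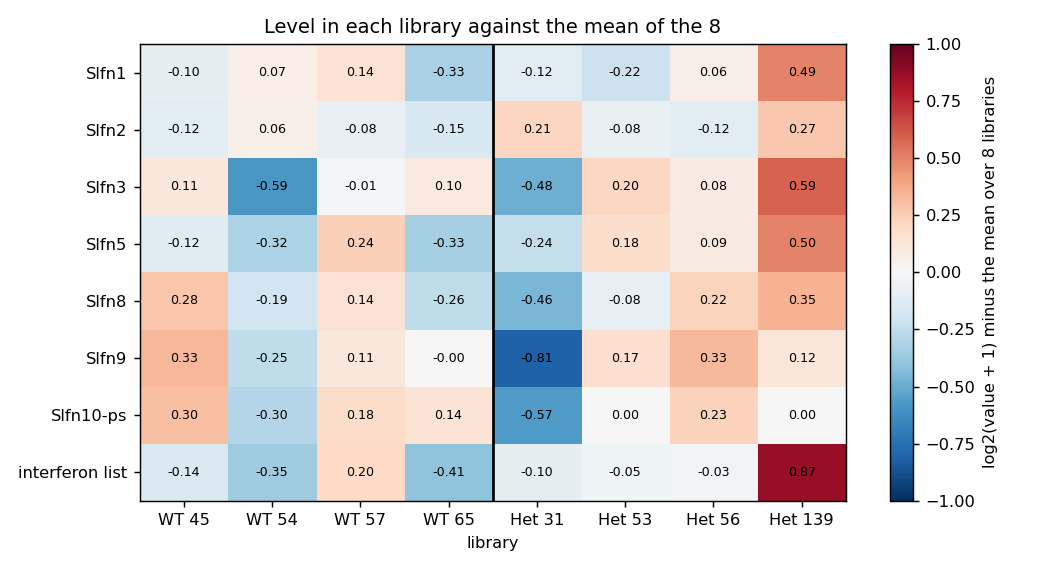
Level of 6 members, of Slfn10-ps and of the interferon response list in each library, as log2(value + 1) minus the mean over the 8 libraries (printed in each cell and coloured from -1 to 1); the black line parts WT from Het. Slfn5 and the interferon list both have their highest value in Het 139 (0.50 and 0.87) and their lowest in WT 65 (-0.33 and -0.41), and Slfn9 is at -0.81 in Het 31.

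Of the 21 relations computed over the 8 libraries (15 between 6 members and 6 with the list below), that between Slfn5 and the type I interferon response list was the closest. The list holds 40 genes and no Schlafen gene, and its mean log2 level stood at 10.44, 10.23, 10.79 and 10.18 in WT 45, 54, 57 and 65, against 10.48, 10.54, 10.56 and 11.46 in Het 31, 53, 56 and 139. Slfn5 followed it with Pearson's r = 0.905 (n = 8, exact permutation p = 0.000174, adjusted p = 0.00365) and Spearman's rho = 0.952 (exact permutation p = 0.00114, adjusted p = 0.0240). Leaving out WT 65 and Het 139, the libraries farthest from the median of the list, r was 0.858, and leaving out each library in turn it was 0.885 to 0.946. With each genotype centred on its own mean r was 0.879, for which no p was computed. The permutation p ran over all orders of the 8 libraries and did not keep the genotypes apart. A separate r within a genotype, with 4 libraries, was not computed. The list was written with earlier results of these data known, and how many of all genes follow it this closely was not counted. The labels name no batch, so none could be tested.

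Slfn1 had r = 0.846 with the same list (exact permutation p = 0.0146, adjusted p = 0.102), but this rested on WT 65 and Het 139, without which r was 0.204. Spearman's rho of Slfn1 was 0.667 (adjusted permutation p = 0.268). For Slfn3, Slfn8, Slfn2 and Slfn9 r was 0.663, 0.623, 0.573 and 0.223 (rho 0.357, 0.619, 0.443 and 0.310), with adjusted exact permutation p from 0.170 to 0.627 for r and from 0.268 to 0.570 for rho. Whether the relation of Slfn5 differs from that of the other members was not tested. Slfn4, whose mean is below 50, was left out of the relations. Among the 15 pairs of the other 6 members, Slfn8 and Slfn9 had r = 0.826 (exact permutation p = 0.00466, adjusted p = 0.0490) and rho = 0.786 (exact permutation p = 0.0279, adjusted p = 0.268). Their r was 0.710 without Het 31 (exact permutation p = 0.0657) and 0.631 without WT 54 and Het 31, so it rested in part on Het 31, and the part of their shared sequence in it was not tested. No other of these 15 pairs passed for r or for rho after adjustment.

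**Figure D5:**
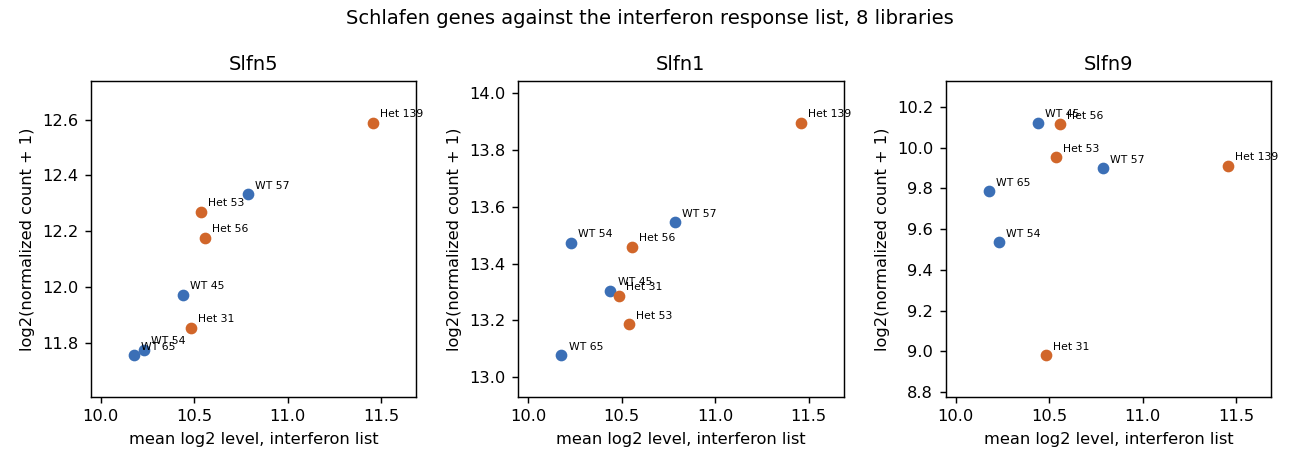
Log2(normalized count + 1) of Slfn5, Slfn1 and Slfn9 (vertical axes, which do not start at 0) against the mean log2 level of the interferon response list (horizontal axes) in the 8 libraries, WT in blue and Het in orange. Slfn5 is higher where the list is higher (r = 0.905), Slfn1 has r = 0.204 once Het 139 and WT 65 are left out, and Slfn9 has r = 0.223.

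The promoters of the long members are shown because they hold a match to the motif bound by interferon-activated factors. The windows are from RefSeq (GRCm38.p6), cover 250 bases before to 50 after the start site, and are printed in the direction of the gene. Capitals mark the core of the interferon-stimulated response element, a GAAA, any 2 bases and a further GAAA, or its reverse complement. The Slfn5 window is chr11:82951852-82952151 on the plus strand, that of Slfn8 chr11:83020761-83021060 and that of Slfn9 chr11:82991781-82992080, both on the minus strand.
Slfn5: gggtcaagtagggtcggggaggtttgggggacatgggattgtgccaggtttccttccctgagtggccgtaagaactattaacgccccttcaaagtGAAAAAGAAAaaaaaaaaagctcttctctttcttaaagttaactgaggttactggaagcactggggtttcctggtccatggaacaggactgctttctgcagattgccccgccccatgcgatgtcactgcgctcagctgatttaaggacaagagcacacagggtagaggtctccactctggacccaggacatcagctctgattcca
Slfn8: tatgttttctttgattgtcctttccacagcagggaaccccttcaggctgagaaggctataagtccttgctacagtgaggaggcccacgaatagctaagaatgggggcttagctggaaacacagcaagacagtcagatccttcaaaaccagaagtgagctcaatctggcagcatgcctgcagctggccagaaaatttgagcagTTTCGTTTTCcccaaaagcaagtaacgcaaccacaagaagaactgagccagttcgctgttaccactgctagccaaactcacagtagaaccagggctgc
Slfn9: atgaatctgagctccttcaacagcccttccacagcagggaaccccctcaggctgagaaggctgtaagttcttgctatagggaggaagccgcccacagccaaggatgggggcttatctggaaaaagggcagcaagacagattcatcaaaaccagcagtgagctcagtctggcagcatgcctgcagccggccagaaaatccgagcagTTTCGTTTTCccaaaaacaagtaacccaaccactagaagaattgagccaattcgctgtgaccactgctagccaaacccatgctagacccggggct

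All 7 members had a promoter window, and 3 of them, Slfn5, Slfn8 and Slfn9, held the motif, which occurs in 3.44% of the 32851 windows of the table (300 bases each, both strands searched). In Slfn8 and Slfn9 the match had the same letters, TTTCGTTTTC, and began 48 and 45 bases before the start site. The printed windows of Slfn8 and Slfn9 also read alike around the match, so their matches may not be independent. The table gives Slfn8 a further start site, from which the same letters lay 136 bases upstream. In Slfn5 it was GAAAAAGAAA, next to a run of a, and began 155 bases before it. The gamma-activated site TTCNNNGAA was in 8.30% of all windows and in none of the members' windows. A match describes letters, and whether it acts in these cells was not tested. With the interferon list, Slfn5, Slfn8 and Slfn9, which hold a match, had r = 0.905, 0.623 and 0.223. Slfn1, Slfn2 and Slfn3, which hold none, had r = 0.846, 0.573 and 0.663.

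The genes whose pattern over the 8 libraries was most like that of each member were taken from 9460 named genes with a mean of at least 50, as a description with no test. For Slfn5 they were Oas3, Mx1 and Ext1 (Pearson's r = 0.959, 0.941 and 0.931), and Oas3 and Mx1 are themselves in the interferon response list. For Slfn2 they were Cd3g, Itm2b and Rpl22 (r = 0.993, 0.989 and 0.988). For Slfn1 they were Tomm20, Strada and Btbd19 (r = 0.969, 0.968 and 0.964). For Slfn3 they were Herc6, Adnp2 and Dtx3l (r = 0.944, 0.930 and 0.930), of which Dtx3l is also in the interferon response list. Zbtb38, Pkp4 and Rpl28 were nearest to Slfn8 (r = 0.969, 0.962 and 0.956), and Clec16a, Slc20a2 and Hnrnpa1 to Slfn9 (r = 0.966, 0.957 and 0.957). None of these 18 genes passed the limma test between the genotypes.

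Genes that act beside the Schlafen members did not pass the test as single genes. Of 22 tested T cell quiescence genes 7 were higher and 15 lower in Het, with a median log2 difference of -0.053 and none called by limma. Its smallest p belonged to Tob1, an inhibitor of T cell proliferation, at 1850 ± 62.1 in WT and 1644 ± 155 in Het (n = 4 each, SD; log2 difference -0.17, limma adjusted p = 0.653). Foxo1, a transcription factor of quiescence and homing, had a log2 difference of 0.16 and its relative Foxo3 one of -0.27 (limma adjusted p = 0.662 and 0.690). Of 22 genes of activation and growth 11 were higher and 11 lower (median 0.00083), with Ifng, the cytokine interferon gamma, at 40.1 ± 27.6 and 81.8 ± 43.5 (n = 4 each, SD; limma adjusted p = 0.652). At an unadjusted limma p under 0.05 there were 0 of 22 quiescence and 2 of 22 activation genes, beside 8.19% of all tested genes.

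Of the 40 interferon response genes, 37 were higher in Het and none was called (median log2 difference 0.28, 3 with an unadjusted limma p under 0.05), a direction that was known when the list was written. Without Het 139, the highest library for this list, 31 of the 40 were higher, with a median of 0.10, and Ifi27l2a had a difference of 0.34. Its Trim30a, Oas1a and Ifi27l2a had log2 differences of 0.29, 0.87 and 0.71 (limma adjusted p = 0.489, 0.590 and 0.601). Of 18 genes of interferon signalling 13 were higher and none was called (median 0.11, 1 with an unadjusted limma p under 0.05). Beside both lists, 8.19% of all tested genes had an unadjusted limma p under 0.05. Ifnar1, a chain of the type I interferon receptor, was at 4987 ± 334 in WT and 5785 ± 508 in Het (n = 4 each, SD; limma adjusted p = 0.590). Among 11 tested genes of RNA cleavage and its control, in which long Schlafen proteins also act, 8 were higher and none was called (median 0.11). N4bp1, an RNA-cleaving inhibitor of cytokine production, had a log2 difference of -0.12 (limma adjusted p = 0.690).

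Among the genes around the Schlafen cluster none passed the test. Of 17 neighbours written from knowledge of the region, 11 were tested, 5 were higher and 6 lower, and the median was -0.0027. The chemokine genes Ccl9 and Ccl6, known from myeloid cells, had log2 differences of 1.44 and 0.93 (limma adjusted p = 0.646 and 0.635), beside a median of 0.42 over the 15 tested myeloid markers, and their relation was not tested.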

How the data were processed

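For 22609 genes and 8 libraries, the authors deposited linear values called normalized read counts, treated here as a signal. Per the labels' protocols, total RNA was extracted on columns and made into stranded libraries of messenger RNA. CASAVA, TopHat2, HTSeq, DESeq and build mm9 are named, without roles or versions, per the submitters' processing notes, while how the values were normalized is not given in the sources used here. Sorted by size, the deposited values of the libraries were alike (all 9513 ranks averaging 100 or more lay within 2% of the average of that rank), as after quantile normalization, so depth was read from genes above 0 and from the steps between low values: the number of different values up to 100 ranged from 106 to 128 in WT and from 74 to 121 in Het libraries, an estimate of the reads behind a value of 100. Whether PCR copies were removed is unknown here.

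Genes with a mean of at least 10 were tested with limma 3.58.1 in R 4.3.3 (trend, log2(value + 1), 2-sided, Benjamini-Hochberg over 12048 genes, threshold 0.05), a script tested on simulated data. Fold changes on this scale understate those of low genes. Exact permutation tests (2-sided) ran over the 70 ways to split the libraries 4 and 4 (lowest possible p 0.0286), or all orders of the libraries for correlations, adjusted over 21 relations. The members and the 16 lists (225 genes, 223 found) were chosen with earlier results of these data known. Named were the Schlafen genes, the 3 genes of each list with the smallest p (4 where more than 3 were called; not all are described, and some are not reported here), and the 3 genes most like each member with a mean of at least 50. Alternatives were the pseudocount, filter, scaling, trend, robust fit, array weights, covariates and leaving out each library. A planned comparison of protein identity was replaced by shared windows of transcript sequence (GENCODE M21). Python 3.11.15 was used for the rest.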

Additional observations from a re-analysis of the deposited data

Results flagged for a closer look

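Single libraries that stood apart were sought with Dixon's ratio, the distance to the closest library over the range of the 4, which by chance picks about 1 group in 20. Among 56 genes, 8 of 112 groups (7.14%) did, and 4 of the 8 were in Het 56. No member of the Schlafen set was among them.

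Slfnl1 was at 19.2 in Het 56, an estimated 15 reads, and at 0 to 2.1 in the other Het libraries. Usp18, an interferon-induced brake on interferon signalling, was at 3330.2 in Het 139 and at 975.2 to 1248.7 in the other Het libraries; Het 139 was also the highest library for Slfn1, Slfn2, Slfn3, Slfn5 and Slfn8. Ifnar1 was at 5484.8 in WT 65 (other WT libraries 4779.6 to 4859.7), and Cd3g at 18659.4 in WT 54 (others 15715.2 to 16087.9). Cd40lg, a helper T cell ligand, was at 157.9 in WT 65 (others 27.2 to 34.6). In Het 56, Cd300a was low, at 42.8 (others 97.1 to 105.8), while Pclo was at 1.9 (others listed at 0) and Ptgds at 7.7 (others 1 to 1.9).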

How the results depend on the processing

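No member passed the threshold under any of the 128 alternative fits (limma adjusted p between 0.364 and 0.9999). The direction was kept in 114 of the 128. The filter, trend and robust settings leave a member's difference as it was and change only its p, so their direction was fixed beforehand. For Slfn1, for example, the difference was 0.106 under each of them. The pseudocount, scaling and quantile normalization settings moved it little as well, to between 0.106 and 0.107 for Slfn1. For Slfn4 they gave 0.15 to 0.31, against 0.19 in the main fit. Every change of direction arose with a covariate, array weights or a library left out. The 114 of 128 therefore overstates how stable the directions were. Slfn2 and Slfn5 stayed above 0 in all 19 of their fits, at 0.057 to 0.21 and 0.035 to 0.39. With the interferon response level as a covariate the log2 difference was -0.10 for Slfn1, -0.030 for Slfn3, -0.058 for Slfn4 and -0.18 for Slfn8. With the myeloid marker level as a covariate it was -1.06 for Slfn4 and 0.14 for Slfn9, and with array weights -0.062 for Slfn8. Leaving out 1 library at a time gave -0.040 to 0.20 for Slfn1, 0.079 to 0.21 for Slfn2, 0.031 to 0.39 for Slfn3, 0.14 to 0.39 for Slfn5, -0.74 to 1.18 for Slfn4, -0.098 to 0.17 for Slfn8 and -0.22 to 0.16 for Slfn9. The cause of these changes was not tested. Slfn4 fell below the filter at a mean of at least 50 and in 4 of the fits without a library, which gave no value.

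Over all genes the count called, 62, was 123 with any gene above 0 (9 of them higher in Het), 14 at a mean of at least 50, 14 and 30 with the interferon and myeloid covariates, and 11 to 91 without 1 library. The interferon list, in an alternative chosen after seeing the data, had 31 of 40 genes higher in Het without Het 139 and 37 to 40 without any other library. No paired analysis was possible because the genotypes share no library number. The value of Slfn4 rests on at most 31 estimated reads in a library.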
